A study of Mus musculus with 2 samples.

Results

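The transcripts of 10 genes of fatty acid synthesis (lipogenesis) were examined in mouse hepatocytes before and 48 h after partial hepatectomy (PHx), an operation that removes liver lobes and is followed by regrowth. The genes were Acly, Acaca, Fasn, Elovl6, Elovl5, Scd1, Me1, Thrsp, Srebf1 and Mlxipl, taken as a list by gene symbol, and 10 of 10 were found among the 27998 genes of the count tables. Hepatocytes of C57BL/6 mice (C57BL/6J in the study's methods) on a normal diet, 10 to 12 weeks old, were isolated by collagenase perfusion and profiled one by one in droplets. In this assay the RNA captured in a droplet receives a common barcode, and every 3′ transcript end is tagged with a unique molecular identifier (UMI), so that molecules are counted. The series held 2 libraries, 1 of healthy undamaged liver (0 h) and 1 of liver 48 h after PHx (48 h). A protocol tag naming PHx surgery is attached to both libraries, and the 0 h library was taken as undamaged from its other labels. By the study's methods each came from 1 mouse, so differences cannot be weighed against the spread from mouse to mouse, and no test across samples was possible. The labels name no sham-operated mice, so surgery itself and the loss of liver mass cannot be told apart.

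The level of each gene was compared in 2 sets of barcodes per library, defined by the share of UMIs from mitochondrial genes (mt). Barcodes over 30% mt numbered 3870 of 59202 at 0 h and 765 of 1586 at 48 h, and those under 2% mt numbered 52587 and 522. Levels are given as UMIs per 1000000 non-mitochondrial UMIs (CPM) of the summed barcodes of a set, and each is a share of that set's RNA, so a higher level of 1 gene and a lower level of the rest cannot be told apart. Intervals are exact 95% intervals and cover counting error only. The sets held 5778391 and 78751891 non-mitochondrial UMIs at 0 h, and 5103719 and 3135996 at 48 h, over 30% and under 2% mt respectively. Median depths were 1214 and 1413 non-mitochondrial UMIs per barcode at 0 h against 4411 and 5272 at 48 h. The libraries shared 148 barcode sequences, of which 76 were among the 765 barcodes over 30% mt at 48 h and 53 among the 522 under 2%. Hepatocyte markers were abundant in all 4 sets, with all 10 detected in each and a summed level between 67612 and 107082 CPM. A barcode is not necessarily an intact hepatocyte, and the study kept far fewer cells after its filters than the 52587 barcodes under 2% mt at 0 h. In that set no zonation of the members was detectable. Markers of T or NK cells, B cells, neutrophils and adipocytes summed to at most 6.70 CPM in each set. Macrophage markers were each at most 8.83 CPM, and endothelial markers other than Dpp4 at most 11.4 CPM. Dpp4 was at 99.7 and 100.9 CPM at 0 h and at 68.8 and 34.1 CPM at 48 h, over 30% and under 2% mt. The cholangiocyte marker Spp1 was at 28.7, 14.4, 42.5 and 15.6 CPM in the same order. Other cholangiocyte markers were each at most 13.7 CPM. Stellate or stromal markers summed to between 28.9 and 35.3 CPM in 3 of the sets and to 193 CPM in the 48 h set under 2% mt, where Dcn alone was at 106 CPM. Erythroid markers summed to 246 CPM in the 0 h set under 2% mt and to between 27.6 and 54.5 CPM in the other 3. The globin gene Hbb-bs was at 75.2 CPM in that 0 h set against 0.319 CPM under 2% mt at 48 h, and the part of these other cell types in the results under 2% mt was not tested.

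Fatty acids are built in the cytosol from acetyl-CoA. Acly makes acetyl-CoA from citrate, Acaca carboxylates it to malonyl-CoA, and Fasn assembles the saturated chain, while Me1 supplies part of the NADPH that the synthesis consumes. Elovl6 and Elovl5 elongate chains and Scd1 introduces a double bond. In liver these genes are known as targets of SREBP-1, encoded by Srebf1 and activated by insulin and feeding, and of ChREBP, encoded by Mlxipl and activated by glucose. Thrsp encodes Spot 14, a small protein linked to lipogenesis.

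Sequence upstream of 4 members is shown because these had the 2 highest (Acly, Fasn) and the 2 lowest (Elovl5, Mlxipl) ratios of 48 h against 0 h in barcodes over 30% mt. Each line holds the 250 bases before the RefSeq transcript start on GRCm38.p6, 5′ to 3′ on the strand of the gene. Capitals mark 3 motifs on either strand, the NF-Y box CCAAT, the GC box GGGCGG and the E-box CACGTG.
Acly (chr11:100528001-100528250, minus strand): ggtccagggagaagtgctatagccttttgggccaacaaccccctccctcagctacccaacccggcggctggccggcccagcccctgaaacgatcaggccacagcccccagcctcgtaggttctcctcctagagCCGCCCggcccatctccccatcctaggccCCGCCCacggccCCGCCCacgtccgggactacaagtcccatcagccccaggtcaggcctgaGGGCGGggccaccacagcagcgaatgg
Fasn (chr11:120824548-120824797, minus strand): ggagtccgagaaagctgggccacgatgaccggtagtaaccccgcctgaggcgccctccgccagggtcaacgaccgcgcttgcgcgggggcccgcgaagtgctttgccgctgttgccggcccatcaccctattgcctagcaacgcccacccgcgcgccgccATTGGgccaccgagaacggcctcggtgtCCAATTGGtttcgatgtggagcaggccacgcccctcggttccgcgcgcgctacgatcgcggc
Elovl5 (chr9:77917115-77917364, plus strand): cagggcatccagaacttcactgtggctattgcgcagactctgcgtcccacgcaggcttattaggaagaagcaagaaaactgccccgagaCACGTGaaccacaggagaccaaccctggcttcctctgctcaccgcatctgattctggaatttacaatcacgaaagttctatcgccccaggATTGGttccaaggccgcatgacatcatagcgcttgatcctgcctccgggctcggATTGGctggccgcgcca
Mlxipl (chr5:135089640-135089889, plus strand): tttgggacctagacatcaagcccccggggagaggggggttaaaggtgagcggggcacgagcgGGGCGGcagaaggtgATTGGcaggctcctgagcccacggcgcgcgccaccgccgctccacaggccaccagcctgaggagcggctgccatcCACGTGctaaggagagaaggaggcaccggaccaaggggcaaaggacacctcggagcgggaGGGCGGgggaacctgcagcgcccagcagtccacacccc

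The 4 windows differed in their motifs. Acly held 4 GC boxes and neither other motif. Fasn held 3 NF-Y boxes, which start 90, 62 and 59 bases before the transcript start, the last 2 overlapping on opposite strands. Elovl5 and Mlxipl held the E-box CACGTG, a sequence that ChREBP and other helix-loop-helix factors can bind, at 161 and 98 bases before the start. The reference table had promoters for 9 of the 10 genes. Of their 13 promoters, 7 had an NF-Y box, 5 a GC box, 2 the E-box and 1 the sterol element TCACNCCAC, which lay in a second Mlxipl promoter that is not shown. Among all 32851 promoters of the table the shares were 33.8%, 32.7%, 6.02% and 1.05%. These matches are descriptions of letters and not of bound factors.

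In barcodes over 30% mt, the enzymes that build the saturated chain were higher at 48 h, and Scd1, Elovl5 and the regulator Mlxipl were lower. Acly and Fasn were the only members past 2-fold, and both lay above it with their whole interval. Of the 10 genes, 7 were higher and 3 were lower with intervals clear of 0 on the log2 scale. Of all genes compared, 71.0% had a log2 ratio above 0, without regard to intervals. The median log2 ratio was 0.74, beside 0.61 for all 5228 genes compared, which were those with at least 20 CPM in either library and at least 20 UMIs in both together. At least 2-fold higher were 2 of the 10 genes, against 33.6% of all genes, and at least 2-fold lower were 0, against 6.66%, so the list as a whole did not exceed this background.

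Acly (chromosome 11, 100476353 to 100528000, minus strand, GRCm38) was at 119 CPM (110 to 128) at 0 h and 333 CPM (317 to 349) at 48 h, a 2.79-fold higher level (log2 ratio 1.48, interval 1.35 to 1.61). Fasn (chromosome 11, 120805846 to 120824547, minus strand) was at 124 CPM (115 to 133) and 316 CPM (301 to 332), a log2 ratio of 1.35 (1.22 to 1.48). Among all genes compared these ratios lay at percentiles 82.0 and 78.3. Both were thus high among all genes without standing at the edge of the distribution. Acaca (chromosome 11, 84129672 to 84401651, plus strand) went from 41.5 CPM (36.4 to 47.1) to 71.1 CPM (64.0 to 78.8), a log2 ratio of 0.78 (0.54 to 1.02), which is close to the median of all genes. Me1 (chromosome 9, 86581371 to 86695953, minus strand) went from 50.9 to 83.3 CPM, a log2 ratio of 0.71 (0.49 to 0.93).

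The 3 chain-modifying enzymes did not share a direction. Elovl6 (chromosome 3, 129532355 to 129638495, plus strand), which elongates the saturated product of Fasn, went from 33.6 CPM (29.0 to 38.6) to 62.3 CPM (55.6 to 69.5), a log2 ratio of 0.89 (0.63 to 1.16). Elovl5 (chromosome 9, 77917364 to 77984519, plus strand), which acts mainly on polyunsaturated chains, went from 236 CPM (224 to 249) to 159 CPM (149 to 171), a ratio of -0.57 (-0.70 to -0.44) at percentile 13.6. Scd1 (chromosome 19, 44394455 to 44407879, minus strand) went from 1204 CPM (1176 to 1233) to 949.9 CPM (923 to 977), a ratio of -0.34 (-0.40 to -0.29) at percentile 19.4.

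Scd1 supplied the largest part of the UMIs of the 10 genes, and its part was smaller at 48 h. In barcodes over 30% mt it made up 49.1% of them at 0 h (exact binomial interval 48.2% to 49.9%) and 35.7% (34.9% to 36.6%) at 48 h. Acly went from 4.85% to 12.5% of the 10-gene total and Fasn from 5.05% to 11.9%. The summed level was 2455 CPM (2414 to 2495) and 2658 CPM (2613 to 2703), a log2 ratio of 0.11 (0.08 to 0.15) beside the median of 0.61 over all genes. The direction of the sum turned with each other scaling, to -0.13 without the 20 most abundant genes, -0.15 with all UMIs and -0.44 with TMM or DESeq2 factors. The shares of the 10-gene total, unlike the sum, do not depend on the scaling.

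Of the regulators, Srebf1 and Mlxipl differed in direction. Srebf1 (chromosome 11, 60199089 to 60222581, minus strand) went from 139 CPM (129 to 149) to 206 CPM (194 to 219), a log2 ratio of 0.57 (0.44 to 0.71). Its transcripts SREBP-1a and SREBP-1c differ at the 5′ end and were not separated by counts of 3′ ends. Mlxipl (chromosome 5, 135089890 to 135138382, plus strand) went from 349 CPM (334 to 365) to 193 CPM (181 to 206), a ratio of -0.85 (-0.97 to -0.74) at percentile 8.61, the lowest of the list. Thrsp (chromosome 7, 97412938 to 97417730, minus strand) went from 157 CPM (147 to 168) to 284 CPM (270 to 299), a ratio of 0.86 (0.74 to 0.98). Exons of Srebf1, Me1, Elovl6 and Mlxipl overlap exons of an opposite-strand gene each, and whether the counting used strand is not given in the sources used here.

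The direction of these 10 ratios held under each of the 4 other scalings, but their sizes did not. With edgeR TMM factors the median of all genes moved from 0.61 to 0.05, the list median was 0.19, and 16.0% of all genes were 2-fold higher and 16.5% lower, in place of 33.6% and 6.66%. No member then reached 2-fold higher, and the log2 ratio was 0.93 for Acly, 0.80 for Fasn and 0.02 for Srebf1. Relative to the median of all genes, Acly stood at 0.87, Fasn at 0.74, Srebf1 at -0.04, Scd1 at -0.95, Elovl5 at -1.18 and Mlxipl at -1.46.

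**Figure D1:**
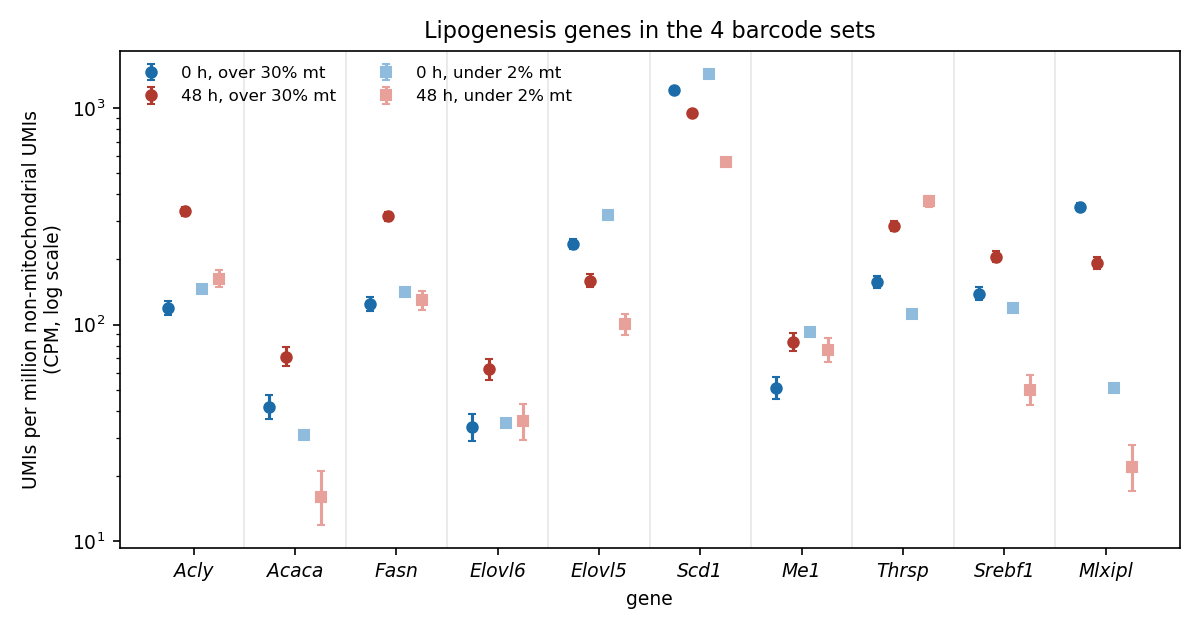
Level of each of the 10 genes in UMIs per 1000000 non-mitochondrial UMIs (CPM, log scale) in the 4 barcode sets, as summed values with exact 95% counting intervals and 1 library per time point. Acly and Fasn are highest in the 48 h set over 30% mt (333 and 316 CPM), Thrsp in the 48 h set under 2% mt (371 CPM), and Mlxipl is far lower under 2% mt than over 30% at both times.

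In barcodes under 2% mt the same comparison gave a different picture, with lower levels for most members. The median log2 ratio of the list was -0.62, beside 0.17 for the 4530 genes compared. Of the 10 genes, 1 was at least 2-fold higher, against 29.9% of all genes, and 4 were at least 2-fold lower, against 23.8%. In all, 2 members were higher and 6 lower with intervals clear of 0, and the intervals of Fasn and Elovl6 included 0. Of all genes compared, 53.8% had a log2 ratio above 0, without regard to intervals. The 10 genes together went from 2485 CPM (2474 to 2496) to 1523 CPM (1480 to 1567).

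Thrsp was the member higher by 2-fold or more, from 112 CPM (110 to 115) to 371 CPM (350 to 392), which is 3.30-fold (3.10 to 3.51). Elovl5 had the lowest ratio of the list, from 320.1 CPM (316 to 324) to 100.1 CPM (89.4 to 112), a log2 ratio of -1.68 (-1.84 to -1.52). Scd1 went from 1437 to 560.3 CPM, a ratio of -1.36 (-1.43 to -1.29). Srebf1 went from 120 CPM to 50.1 CPM, a ratio of -1.26 (-1.49 to -1.03), and Mlxipl from 51.1 to 22.0 CPM, a ratio of -1.22 (-1.58 to -0.87). Elovl5, Scd1 and Mlxipl were thus lower at 48 h in both sets. Of the 69 UMIs of Mlxipl under 2% mt at 48 h, 42.0% lay in 10 of the 522 barcodes. Its interval does not cover such uneven spread. Acaca rested on 50 UMIs at 48 h and went from 30.8 to 15.9 CPM, a ratio of -0.95 (-1.39 to -0.55), and Me1 from 92.8 to 76.2 CPM, a ratio of -0.28 (-0.48 to -0.10).

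Fasn and Acly, the members with the highest ratios over 30% mt, were near level under 2% mt. Fasn was at 141 CPM (139 to 144) and 129 CPM (117 to 142), a log2 ratio of -0.13 (-0.28 to 0.01). Acly was at 146 CPM and 163 CPM, a ratio of 0.16 (0.03 to 0.29), and Elovl6 at 35.0 and 35.7 CPM, a ratio of 0.03 (-0.26 to 0.30). The last 2 were negative with TMM factors, at -0.02 and -0.15. Without barcodes that held non-parenchymal markers, which were 405 at 0 h and 20 at 48 h, the list median was -0.60, and without the shared barcode sequences it was -0.62.

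**Figure D2:**
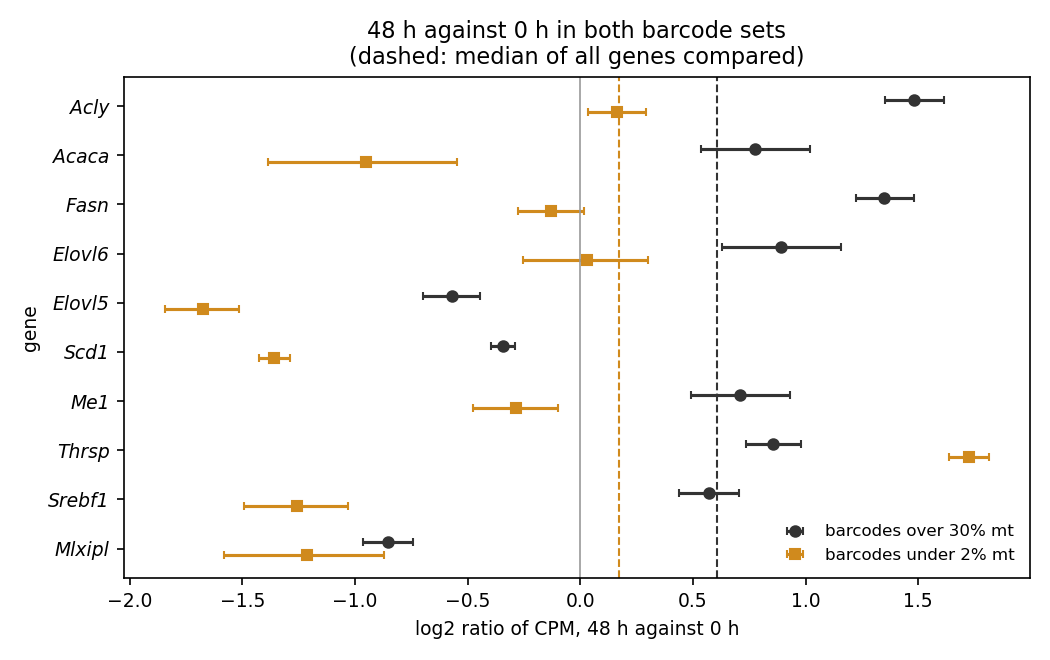
Log2 ratio of CPM at 48 h against 0 h for each gene in barcodes over 30% mt (circles) and under 2% mt (squares), with exact 95% counting intervals, 1 library per time point and dashed lines at the medians of all genes compared (0.61 and 0.17). Each member except Thrsp lies further to the right over 30% mt, and among the circles Acly (1.48) and Fasn (1.35) lie furthest to the right.

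The ratio of 48 h against 0 h was higher over 30% mt than under 2% mt for 9 of the 10 genes. No share of all genes is given beside this count, but their median ratio was also higher over 30% mt (0.61 against 0.17). For transcripts over 4 kb the medians were 0.40 and -0.69. The difference of the log2 ratios was 1.83 for Srebf1 (1.56 to 2.09), 1.73 for Acaca, 1.48 for Fasn and 1.32 for Acly. It was lowest among these 9 for Mlxipl, at 0.36 (0.00 to 0.72). Thrsp differed in the other direction, by -0.87 (-1.02 to -0.72). These intervals hold counting error only, not the uneven spread of Mlxipl under 2% mt, and the difference between the sets has no replicate.

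Transcript length moved with these ratios. Over all genes under 2% mt, the median log2 ratio of 48 h against 0 h was 1.51 for transcripts under 1 kb, 0.85 for 1 to 2 kb, -0.17 for 2 to 4 kb and -0.69 for over 4 kb. Over 30% mt the corresponding medians were 1.38, 0.83, 0.53 and 0.40. By the longest coding transcript of the annotation, Fasn (10.1 kb), Acaca (9.51 kb), Elovl6, Scd1, Acly and Srebf1 are over 4 kb, and Thrsp, the member that differed from the others, is the shortest at 1.28 kb. Beside the median of their own length class under 2% mt, Fasn, Acly, Elovl6 and Thrsp had higher ratios and Acaca, Scd1, Srebf1, Elovl5, Me1 and Mlxipl had lower ones. Over 30% mt, Acly and Fasn lay above the upper quartile of their class (0.92), and Scd1, Elovl5 and Mlxipl lay below the lower quartile of theirs. The part of transcript length in these results was not tested.

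**Figure D3:**
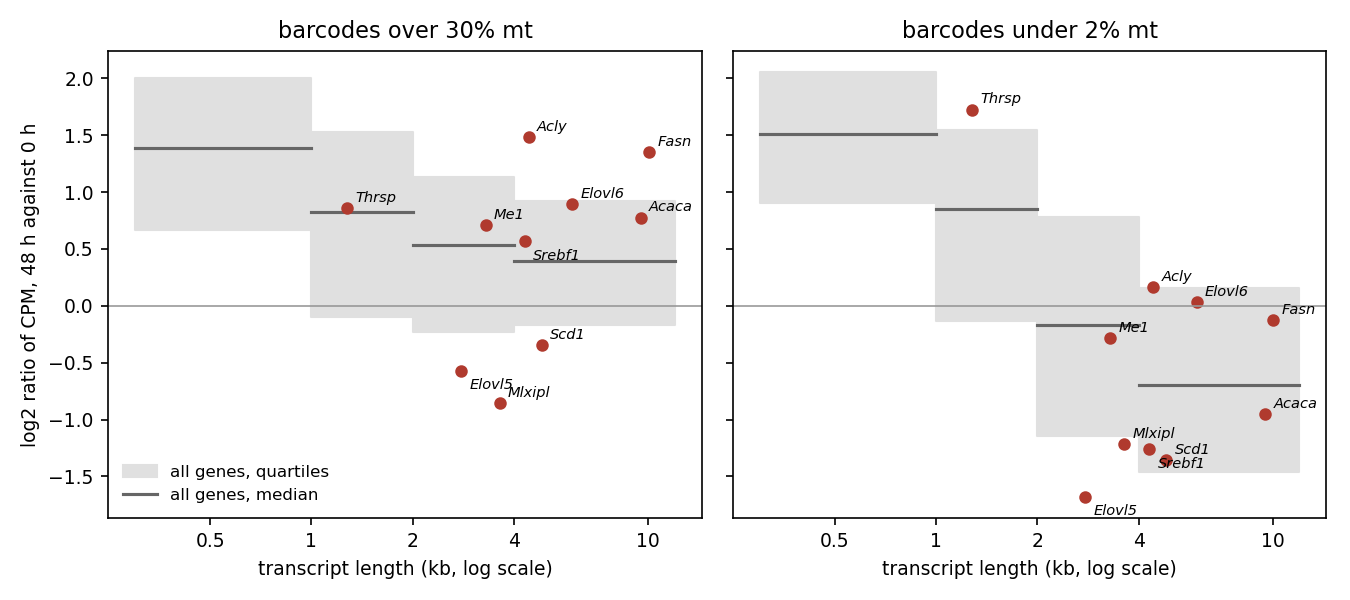
Log2 ratio of CPM at 48 h against 0 h plotted against transcript length in kb (log scale, the outer classes being open), with the 10 genes as points and all genes compared as grey quartile bands with their median for each length class. The medians step down from 1.51 to -0.69 under 2% mt and from 1.38 to 0.40 over 30% mt, and Acly and Fasn lie above the band of their class over 30% mt.

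Comparing both sets within a library asked which members depend on the mitochondrial share of a barcode. At 0 h the ratios of 8 members lay between -0.44 and 0.48, Me1 was lower over 30% mt at -0.87 (-1.04 to -0.70) and Mlxipl higher, with a list median of -0.12 beside -0.17 for 4303 genes. At least 2-fold higher over 30% mt was 1 of the 10 genes, against 12.2% of all genes, and at least 2-fold lower were 0, against 13.4%. At 48 h the list median was 0.92 beside 0.45 for 5229 genes, and 5 of the 10 genes were at least 2-fold higher over 30% mt, against 31.1%, and 0 lower, against 8.91%. The 5 were Mlxipl, Acaca, Srebf1, Fasn and Acly, with log2 ratios of 3.13 (2.78 to 3.51), 2.16 (1.73 to 2.61), 2.04 (1.80 to 2.29), 1.29 (1.13 to 1.45) and 1.03 (0.89 to 1.18). Of all genes with transcripts over 4 kb, 55.9% were at least 2-fold higher over 30% mt at 48 h, with a median of 1.09. Fasn, Acaca, Elovl6, Scd1, Acly and Srebf1 belong to that class, and the part of transcript length was not tested. Thrsp alone was lower over 30% mt, with a ratio of -0.38 (-0.50 to -0.27). Scaled to all UMIs, mitochondrial ones included, Acly, Scd1, Elovl6, Elovl5 and Me1 at 48 h and Acaca, Srebf1 and Thrsp at 0 h turned to lower over 30% mt, the list medians were -0.99 at 0 h and -0.21 at 48 h, and 58.5% and 52.7% of all genes were then at least 2-fold lower over 30% mt. With DESeq2 size factors the split at 48 h was 11.9% higher and 27.1% lower, and the list median was 0.26.

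Mlxipl was the member that separated the sets at 0 h. It was at 349 CPM over 30% mt and 51.1 CPM under 2% mt, 6.84-fold higher (6.48 to 7.21), at percentile 99.3 of all genes. Over all barcodes of the 0 h library it was at 51.1 CPM under 2% mt, 54.2 CPM at 2 to 10%, 235 CPM at 10 to 30%, 325 CPM at 30 to 50% and 424 CPM over 50%. At 48 h the levels in the same order were 22.0, 16.8, 87.1, 131 and 246 CPM. It thus was higher in each step above 10% mt in both libraries, and lower at 48 h in each of the 5 classes. Some further transcripts known to be held largely in the nucleus were looked up after these values were seen. Neat1 was at 1289 and 86.3 CPM at 0 h and at 607 and 76.8 CPM at 48 h, over 30% and under 2% mt, and Nlrp6 was at 233 and 32.0 CPM and at 105 and 13.1 CPM. Malat1 was at 4675 and 2220 CPM at 0 h and at 2816 and 2172 CPM at 48 h. In hepatocytes Mlxipl mRNA is itself known to be retained in the nucleus, and the part of nuclear RNA in these levels was not tested.

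The sum of the 10 genes hardly followed the mitochondrial share at 0 h, ranging from 2251 to 2598 CPM over the 5 classes. At 48 h it was 1523 CPM under 2%, 1156 CPM at 2 to 10%, 2671 CPM at 10 to 30%, 2752 CPM at 30 to 50% and 2577 CPM over 50%. Fasn at 48 h was at 129 and 98.0 CPM in the lowest classes and at 256, 299.6 and 329.7 CPM in the other 3, whereas at 0 h it ranged from 102 to 141 CPM. The higher Fasn level at 48 h was therefore present in every class above 10% mt and in neither class below it. Srebf1 was likewise higher at 48 h above 10% mt and lower below it. Thrsp was at 371, 151, 353, 281 and 287 CPM at 48 h, above its 0 h level in each class, which ranged from 103 to 163 CPM.

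**Figure D4:**
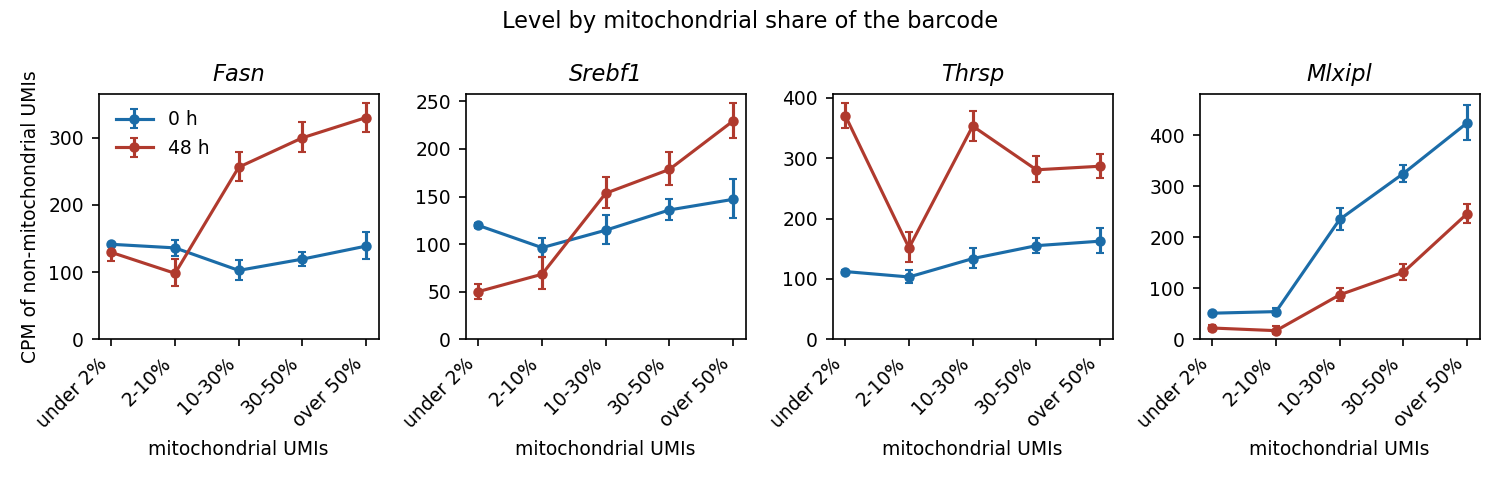
Level of Fasn, Srebf1, Thrsp and Mlxipl (CPM of non-mitochondrial UMIs, axes from 0) by the mitochondrial share of the barcode in the 0 h (blue) and 48 h (red) libraries, with exact 95% counting intervals. Fasn and Srebf1 at 48 h pass above their 0 h level only above 10% mt, Thrsp is above it in all 5 classes and Mlxipl below it in all 5.

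The position of hepatocytes in the lobule was used to look at variation within the sets. Barcodes were ordered by the share of perivenous UMIs among perivenous and periportal marker UMIs, divided into 3 groups of about equal number, and the outer groups, called perivenous and periportal, were compared. Only barcodes with at least 10 such UMIs were used, which were 2733 of 3870 over 30% mt at 0 h and 761 of 765 at 48 h. For scale, the markers Cyp2e1 and Cyp2f2, which the order itself used, had log2 ratios of 2.94 and -2.75 over 30% mt at 0 h. Me1 was the most zoned member at 0 h, at 92.4 CPM in the perivenous and 29.8 CPM in the periportal group, a log2 ratio of 1.63 (1.16 to 2.12). At 48 h it was at 107 and 78.2 CPM, a ratio of 0.45 (0.12 to 0.78). Mlxipl went from 0.53 (0.36 to 0.70) at 0 h to -0.03 (-0.26 to 0.20) at 48 h.

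Other members leaned to the periportal group. Srebf1 had ratios of -0.51 (-0.82 to -0.21) at 0 h and -0.27 (-0.50 to -0.03) at 48 h. Scd1 had a ratio of -0.19 (-0.29 to -0.09) at 0 h and 0.04 (-0.07 to 0.14) at 48 h. Acly was at 250 CPM in the perivenous and 341 CPM in the periportal group at 48 h, a ratio of -0.45 (-0.65 to -0.26), while Fasn and Thrsp leaned the other way, at 0.23 (0.05 to 0.41) and 0.41 (0.23 to 0.59). The median of all genes between these groups was 0.33 at 0 h and 0.10 at 48 h. The groups are ranges of a continuous score and not cell types, and 10.3% and 14.3% of the scored barcodes over 30% mt lay within 0.02 of a dividing value, against 33.7% and 30.7% under 2% mt. Under 2% mt the intervals of all 10 genes included 0 at both times, where Cyp2e1 itself had ratios of 0.46 and 1.14. Zonation of the members under 2% mt was therefore not detectable in these sets.

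**Figure D5:**
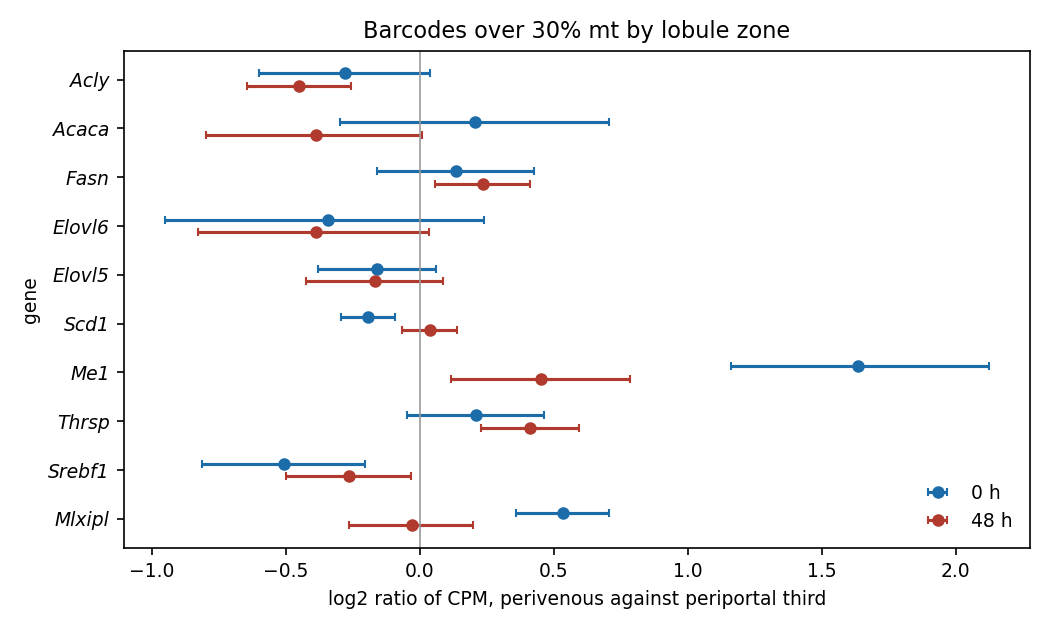
Log2 ratio of CPM between the perivenous and periportal groups of barcodes over 30% mt for each gene at 0 h (blue) and 48 h (red), with exact 95% counting intervals. Me1 lies furthest towards the perivenous side at 0 h (1.63) and is closer to 0 at 48 h (0.45), and Acly at 48 h (-0.45) and Srebf1 at 0 h (-0.51) lie on the periportal side.

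The members also differed in how evenly their UMIs were spread over barcodes. This was given as the variance between barcodes beyond sampling, relative to the squared mean, a measure chosen after seeing the data that does not grow with depth and is 0 where barcodes differ by sampling alone. Over 30% mt it was 0.26 at 0 h and 0.91 at 48 h for Scd1, which had the highest value of the 10 genes at 48 h. Thrsp followed with 0.45 and 0.56, and Elovl5 had 0.02 and 0.44. Fasn was at 0.35 and 0.25 and Acly at 0.21 and 0.14, so these members, whose levels were higher at 48 h, were not less even there. Under 2% mt Scd1 was at 0.03 at 0 h and 0.31 at 48 h, and Mlxipl had the highest values of the 10 genes, 2.43 and 6.73. These values have no error from replicates. The 10 barcodes richest in Scd1 over 30% mt at 48 h held 15.0% of its 4848 UMIs and 1 of them held 113, where the 10 deepest barcodes held 6.09% of all non-mitochondrial UMIs.

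The 10% of barcodes with the highest Scd1 level, a division made after seeing the data, was compared with the rest for the other 9 members. Over 30% mt at 48 h the 76 barcodes had Scd1 at 2844 CPM against 706 CPM in the rest. Acaca was higher in them by a log2 ratio of 0.53 (0.10 to 0.95), Elovl5 by 0.47 (0.18 to 0.75) and Acly by 0.36 (0.16 to 0.56), beside a median of 0.03 over all genes, and the intervals of the other 6 included 0. These intervals do not cover the spread between barcodes beyond sampling. No share of all genes with intervals clear of 0 is given beside them, so the 3 genes are not set apart from other genes. Median depths were 5341 and 4267 non-mitochondrial UMIs, and 3 of the 76 barcodes held non-parenchymal markers. At 0 h over 30% mt none of the 9 intervals was clear of 0.

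Shares of barcodes with at least 1 UMI were compared after thinning each barcode to 500 non-mitochondrial UMIs, which left out 75 barcodes over 30% mt at 0 h. For Fasn the shares over 30% mt were 5.88% (5.15% to 6.67%) at 0 h and 14.8% (12.3% to 17.5%) at 48 h, and for Acly 5.98% (5.25% to 6.78%) and 16.1% (13.5% to 18.9%). Without thinning the Fasn shares were 15.8% and 69.3%, at median depths of 1214 and 4411. Barcodes with non-parenchymal markers are not a background without lipogenic transcripts, as their Scd1 shares below show. They gave 5.45% and 6.49% for Fasn and 9.29% and 11.4% for Acly, at median depths of 2094.5 and 6609. The Fasn share over 30% mt at 48 h was thus above theirs, with an interval (3.40% to 11.1%) that does not overlap its own. The groups are not separate, since 50 of the 765 barcodes over 30% mt at 48 h held non-parenchymal markers. Barcodes with such markers were also taken at every mitochondrial share, so cell type and mitochondrial share cannot be told apart here. The Fasn share at 0 h and the Acly share at 48 h were not clear of theirs. The Acly share at 0 h (5.98%) lay below theirs (9.29%). Thinned to 1000 UMIs instead, the Acly share at 48 h was 30.4% (27.1% to 33.8%) against 20% (14.5% to 26.5%), clear of theirs. Scd1 had a UMI in 41.2% and 32.2% of thinned barcodes over 30% mt, against 41.1% and 22.7% in those with non-parenchymal markers. Mlxipl had one in 17.1% and 10.1%, against 2.24% and 2.16%.

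The genes around the pathway did not move as a block in barcodes over 30% mt. Their lists are given by counts past 2-fold, beside 33.6% of all genes higher and 6.66% lower. Counts near these shares do not set a list apart. Of 11 regulators compared, 3 were higher and 1 lower at 48 h. Nr1h3, which encodes the liver X receptor alpha, had a log2 ratio of 1.15 (0.97 to 1.32), and Mid1ip1, a relative of Thrsp that activates acetyl-CoA carboxylase, had 1.24 (0.88 to 1.60). Insig2, which retains SREBP in the endoplasmic reticulum and is known to be lowered by insulin, was at 384 CPM at 0 h and 81.3 CPM at 48 h, a ratio of -2.24 (-2.39 to -2.09). Insig1 had a ratio of -0.69 (-0.78 to -0.61). Of the 9 genes compared for substrate and NADPH supply, 4 were higher and 1 lower. Pgd and Mdh1 had ratios of 1.31 and 1.27, and Acss2, which makes acetyl-CoA from acetate, was lower, at -1.11 (-1.29 to -0.93). Slc25a1, the carrier that exports citrate from mitochondria, was level at 0.05 (-0.09 to 0.19).

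Genes of further elongation and desaturation had a median below that of the lipogenesis list. Of 12 compared, 0 were at least 2-fold higher and 3 were lower, with a median of -0.58. For these and the lists below, the shares of all genes were again 33.6% and 6.66%. Elovl3, an elongase of very long chains, was at 821 CPM at 0 h and 5.49 CPM at 48 h, a log2 ratio of -7.23 (-7.82 to -6.69), and Tecr had a ratio of -1.26. Acsl5 and Hacd2 had the highest ratios, at 0.49 and 0.31. Elovl3 and Tecr belong with Elovl5 in the elongation cycle. For glucose entry, 1 of 7 genes was higher and 2 were lower. Tkfc was at 0.98, and the ChREBP target Pklr and the glucose transporter Slc2a2 were lower, at -1.21 (-1.57 to -0.85) and -1.06 (-1.21 to -0.92). In glycerolipid synthesis, where 1 of 6 was higher and 1 lower, Lpin2 and Lpin1 had ratios of 1.32 and 0.83, and Agpat2 and Dgat2 of -1.34 and -0.54. In the list of malonyl-CoA and AMPK genes, 1 of 6 was higher and 0 lower. Prkab1 and Prkag1 had ratios of 1.24 and 0.80, Prkaa2 of 0.08 and Acacb, the mitochondrial counterpart of Acaca, of -0.66 (-0.92 to -0.40). Among 6 genes of the fasting response, Pck1 was higher, at 1.51 (1.43 to 1.59), and G6pc lower, at -2.14 (-2.33 to -1.96), although both serve gluconeogenesis.

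The median of fatty acid oxidation lay above that of the lipogenesis list in the same barcodes, and that of cholesterol synthesis below it. Of 16 oxidation genes, 9 were at least 2-fold higher and 1 was lower, against 33.6% and 6.66% of all genes, with a median log2 ratio of 1.07 beside 0.61. Cyp4a14 had a ratio of 2.63 (2.33 to 2.94), Acadm, the medium-chain acyl-CoA dehydrogenase, of 1.70 (1.52 to 1.90), Cyp4a10 of -0.15 and Acaa1b of -1.21. The Cyp4a and Acaa1 families have near-identical copies, so single values for Cyp4a14, Cyp4a10 and Acaa1b are uncertain. Of 19 cholesterol synthesis genes, 3 were higher and 7 lower, with a median of -0.60. Msmo1 and Hsd17b7 had the lowest ratios, at -2.04 and -1.60. Under 2% mt the medians of the oxidation and cholesterol lists were -0.18 and -1.28, beside 0.17 for all genes.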

How the data were processed

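Hepatocytes were profiled with 10X Genomics 3′ version 2 chemistry, 1 library per time point. The authors deposited unnormalized UMI counts per gene and barcode made with Cell Ranger (version and strand setting not given in the sources used here), and the submitters' processing notes name mm10. The filters on mitochondrial content and doublets that the study describes were not applied here, and no doublet caller was run. The 10 genes and all other lists were chosen with earlier results of these data known.

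UMIs were summed over barcodes over 30% or under 2% mitochondrial and scaled to all non-mitochondrial UMIs (CPM). Levels carry exact Poisson, ratios exact conditional binomial and shares Clopper-Pearson 95% intervals, which cover counting error only. With 1 library per group no test was made. A gene was compared with at least 20 CPM in either set and at least 20 UMIs in both together, a count of 0 being set to a floor of 3 UMIs, and was counted from 2-fold. All 10 members passed in each comparison. From every other list the 2 genes with the highest and the 2 with the lowest ratio over 30% mt were named, with single exceptions chosen after their values were seen (Malat1, Neat1, Nlrp6). Some genes that this rule picks are not reported here. Barcodes with at least 3 UMIs of at least 2 markers of a non-parenchymal cell type were counted as holding such markers. Positions and lengths came from GENCODE M21 on GRCm38 and promoters from RefSeq on GRCm38.p6. Alternatives were other scalings (edgeR 4.0.16 TMM, DESeq2 1.42.0 size factors, all UMIs, without the 20 most abundant genes), other mitochondrial, level, fold and thinning limits, and barcodes left out. Scripts ran in Python 3.11.15 (numpy 2.4.6, scipy 1.17.1, pandas 2.3.3, matplotlib 3.10.9) and R 4.3.3 and were tested on simulated counts. No column of another sample was present.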

Additional observations from a re-analysis of the deposited data

Results flagged for a closer look

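For 3 of the 10 genes the libraries differed in opposite directions in the 2 sets of barcodes, with each interval clear of 0. The log2 ratio of 48 h against 0 h was 0.78 over 30% mt and -0.95 under 2% mt for Acaca, 0.57 and -1.26 for Srebf1, and 0.71 and -0.28 for Me1. The medians of all genes of like transcript length also had opposite signs in the sets. They were 0.40 and -0.69 for over 4 kb, the class of Acaca and Srebf1, and 0.53 and -0.17 for 2 to 4 kb, the class of Me1. With 1 library per time point the difference between the sets was not tested. With TMM factors the value over 30% mt was 0.02 for Srebf1, 0.16 for Me1 and 0.22 for Acaca. The distance of all 3 from 0 over 30% mt thus depends on the scaling.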

How the results depend on the processing

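No paired analysis was possible because each group held 1 library, and for the same reason no library could be left out. For 48 h against 0 h over 30% mt, the list median of 0.74 was 0.50 without the 20 most abundant genes, 0.48 scaled to all UMIs, 0.19 with TMM factors and 0.19 with DESeq2 size factors (0.187). Members at least 2-fold higher numbered 0 with TMM and 0 with DESeq2, and members at least 2-fold lower 1, 1, 2 and 2 in that order of scalings. At 1.5-fold, 6 were higher and 1 lower, against 50.9% and 13.2% of all genes. Between the sets at 0 h, scaling to all UMIs gave a median of -0.99 with 5 members lower, and the 1.5-fold limit 1 lower. Between the sets at 48 h, scaling to all UMIs gave -0.21 with 2 higher and 2 lower, TMM 0.34 with 3 higher, DESeq2 0.26 with 3 higher and 1 lower, and the 1.5-fold limit 8 higher. Scaled to all UMIs, Acly there turned from 1.03 to -0.10 (-0.0989), Scd1 from 0.76 to -0.37, Elovl6 from 0.80 to -0.33, Elovl5 from 0.67 to -0.46 and Me1 from 0.13 to -1.0, and Me1 was also negative with TMM and DESeq2. These shifts follow from the scaling factor, which moves all genes alike, or from the fold limit. For 48 h against 0 h under 2% mt, the list median stayed between -0.93 and -0.32. These are the medians of the members' own lower and upper interval limits and not an interval of the list median. Members lower there numbered 5 in place of 4 without the 20 most abundant genes, with TMM, with DESeq2 and at 1.5-fold. Leaving out barcodes with non-parenchymal markers gave 0.79 over 30% mt and -0.60 under 2% mt. Alternatives chosen after seeing the data were without shared barcodes (0.74 and -0.62) and, over 30% mt alone, with barcodes of 1000 to 4000 non-mitochondrial UMIs (0.62). Of the values for the list, 123 stayed and 24 moved, and of those for single genes 480 stayed, 199 moved and 1 reversed. Some could not move, since a changed mitochondrial limit on 1 set leaves the time comparison in the other set as it was. The count of reversed values is not the number of changes of sign, which was higher. For 48 h against 0 h under 2% mt, without the 20 most abundant genes, Acly turned to -0.08 and was counted as moved. Elovl6 turned to -0.21 there and was counted as stayed. Depth limits Acaca and Mlxipl under 2% mt at 48 h, which rest on 50 and 69 UMIs.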

Other observations

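At 48 h under 2% mt, Thrsp made up 24.3% of the UMIs of the 10 genes, against 4.51% at 0 h, while Scd1 went from 57.8% to 36.8%. In the 185 barcodes of the 48 h library that held non-parenchymal markers, the variance of Scd1 beyond sampling, relative to the squared mean, was 0.59, against 0.08 in the 936 such barcodes at 0 h.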
